A study of Mus musculus with 69 samples.

Results

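Histone H3 acetylated at lysine 27 (H3K27ac) was compared between haematopoietic stem cells (HSCs) of wild-type mice given 5-fluorouracil (5FU) and of wild-type mice given the vehicle, phosphate-buffered saline (PBS). The comparison was chosen by group label and used 6 of the 69 samples of the series, 3 libraries of each treatment. The mice were 16 weeks old and carried no Vav-Cre according to their labels. They received 3 doses of 150 mg/kg 5FU, or of PBS, with 3 weeks between doses. HSCs were sorted and fixed, and Tn5 transposase added the sequencing adapters to the precipitated chromatin (ChIPmentation). The only other HSC H3K27ac data of the series came from mice of the same age and the same 2 treatments with both copies of Kmt2c floxed and with Vav-Cre, a recombinase driven in blood cells. They are called knockout here, and also had 3 libraries per treatment. Sex, animals per library and batch are not given in the labels.

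H3K27ac is placed by the acetyltransferases p300 and CBP at active enhancers and promoters, and is lost when these elements fall silent. HSCs are rare marrow cells that are mostly quiescent and can rebuild all blood lineages. 5FU blocks thymidylate synthase and kills dividing cells; the loss of cycling progenitors calls HSCs into division, after which the survivors return to quiescence. Repeated courses therefore make HSCs go through this cycle again and again.

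Each treatment had 1 peak list made from its 3 libraries together. No separate values of the libraries were used here, so there is no replicate error for any value below, p-values are not given, and what is compared is 2 pooled lists. A peak is a stretch of genome where the authors' peak caller found more reads than in the background, and the bases inside peaks are called covered bases. In a bulk list, a mark in more of the cells and more of the mark in each cell cannot be told apart.

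The 5FU list held 67143 peaks over 45.4 Mb and the PBS list 59263 peaks over 42.2 Mb. Peaks of the 5FU list were narrower, with a median of 379 bases against 430, and fewer of them had a −log10 q of 5 or more (25.4% against 29.0%). Read depth is unknown. The lists shared 34.1 Mb of covered sequence. That was 63.5% of all bases in either list, 75% of the 5FU bases and 80.6% of the PBS bases. The 5FU list alone covered 11.4 Mb and the PBS list alone 8.18 Mb.

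The defining genes of HSCs were covered in both lists. The 9 HSC markers reported (Hlf, Mecom, Procr, Fgd5, Hoxb5, Mllt3, Tek, Kit and Meis1) all had covered bases within 50 kb of the gene, with sums of 218022 bases in the 5FU list and 188874 in the PBS list and ranges from 2258 to 71901 and from 2467 to 63766. Of 7 granulocyte and monocyte markers, Ctsg and Ly6c2 were at 0 in both lists, and the 7 summed to 50544 and 45166 bases. Of 8 markers of B, T and NK cells, Cd8a and Ncr1 were at 0 in both, and the sums were 22778 and 21393. Of 6 markers of stroma and endothelium, Lepr and Cxcl12 were at 0 in both; the sums were 45734 and 35259, mostly from Pecam1 with 37412 and 30088 bases. The 3 erythroid markers reported (Klf1, Epor and Alas2) summed to 7616 and 7095 bases. Every class thus had the larger sum in the 5FU list, which covered more of the genome as a whole, and the part of other cells in the differences below was not tested.

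The strongest peaks were common to both treatments, and what set the lists apart was mostly weak. Peaks were ranked within their own list by the authors' −log10 p, and a region was called exclusive when no base of it overlapped the other list. Of 6715 regions in the strongest decile of the 5FU list, 3 were exclusive (0.0447%), and none were in the strongest decile of the PBS list. In the weakest decile 68.4% of 5FU regions and 61.6% of PBS regions were exclusive. In total 23425 regions of the 5FU list (34.9%) and 15139 of the PBS list (25.5%) were exclusive, with median widths of 199 and 205 bases. In the plot of exclusive regions by strength, the 5FU list lay above the PBS list in every decile. The 5FU list is also the larger of the pair.

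**Figure D1:**
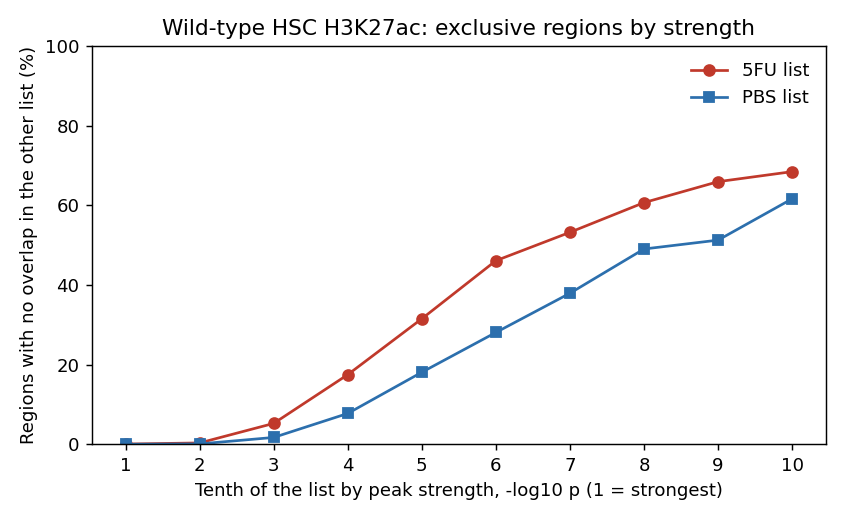
Share of regions with no overlap in the other list (y axis, percent) by decile of the list from the strongest to the weakest peaks by −log10 p (x axis), for the pooled 5FU list (red circles) and PBS list (blue squares) of wild-type HSCs. Both shares climb from near 0 in the 2 strongest deciles to 68.4% and 61.6% in the weakest.

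The strongest 25% of regions of a list, by −log10 p, are called strong below. There were 144 strong exclusive regions in the 5FU list (0.847% of 17006 strong regions) and 25 in the PBS list (0.167% of 14965), so that 85.2% of the strong exclusive regions were in the 5FU list (Wilson 95% interval 79.1% to 89.8%, counting error only). This share depended on list size: it was 57.8% with equal numbers of peaks and 30.0%, on the PBS side, with equal covered bases. Which list held more strong exclusive regions thus depended on how list size was treated. The strong exclusive regions were small, with median widths of 383 bases (5FU) and 401 bases (PBS), against 1375 and 1392 for strong regions found in both. They also lay away from gene starts more often: 30 of 144 (20.8%) and 4 of 25 (16%) were within 1 kb of an annotated start, against 40.7% and 43.6% of strong shared regions. For 5FU the share within 1 kb was higher, 37.0%, with equal covered bases, which left fewer strong exclusive regions in its list. The reason was not tested. Of the 144 and 25 regions, 87 and 18 lay inside a protein-coding gene.

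The strongest regions of the 5FU list without a counterpart were at the end of the X chromosome. The first, the second, the third and the sixth by strength lay between 169990985 and 169999486 on X (build mm10), just beyond Mid1, a gene at the boundary of the pseudoautosomal region, which X and Y share. Their −log10 p values were 35.2, 17.6, 16.9 and 13.4. All 4 lay fully inside peaks of both knockout HSC lists and of both wild-type lists of haematopoietic progenitor cells (HPCs), so the absence is one of the wild-type PBS list. The HPC lists of H3K27ac came from another experiment, with mice 8 to 10 weeks old given interleukin-1 or its PBS vehicle for 3 days and 4 libraries per group. The next was a 646-base region that began 932 bases past the end of Sufu, a Hedgehog pathway inhibitor (chromosome 19, 46489736 to 46490381, −log10 p 14.6). Then came a 204-base region at the start of Wiz, a zinc-finger partner of the G9a methyltransferase (chromosome 17, 32389202 to 32389405, 13.6). Weaker ones lay in Rab1b, Pdpr, Dynlt1b and H2ac22, with values from 12.8 down to 10.8. In total covered length these genes lay on both sides of the median gene: relative log2 ratios, defined below, were 0.90 for Mid1 (3241 bases after 5FU and 1185 after PBS; knockout −0.04), 0.34 for H2ac22, 0.29 for Rab1b, 0.25 for Wiz, 0.04 for Sufu, −0.04 for Dynlt1b and −0.14 for Pdpr.

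The strongest regions found in the PBS list alone had −log10 p values up to 11.2, on the scale of that list. They lay within Desi2 near its start (chromosome 1, 178187698 to 178188022, −log10 p 11.2), in Nhsl2 (11.2), in the predicted gene Gm51877 (10.4), and in Hspb8 (chromosome 5, 116417198 to 116418122, 10.3). The last is 925 bases wide and begins inside the gene of a small heat shock protein. The gene also differed in total covered bases, which are given below. The others were beside or in Mlf2, Fosb, Rab5b, Car13, Dnajc6 and Iqsec1. Relative log2 ratios of the last 6 genes ranged from −0.38 (Dnajc6) to 0.26 (Rab5b).

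Nearly all strong exclusive regions were covered in another H3K27ac list of the series: 136 of 144 from the 5FU list and 24 of 25 from the PBS list. In the knockout HSC lists, 101 of the 144 (70.1%) had a peak after 5FU and 85 (59%) after PBS; of the 25, the counts were 20 and 21. Larger numbers were given by the exclusive regions in the stronger 50% of each list, 3773 for 5FU and 2811 for PBS. All regions tied at the median −log10 p were kept in this tier. It therefore held 50.5% of the 5FU list but 57.0% of the PBS list, and the tiers are not matched. The top 50% below means this tier. Of the 5FU ones, 46.0% had a peak in the knockout 5FU list and 30.7% in the knockout PBS list. Of the PBS ones, 39.6% and 36.9% did. Shared regions ranked between the top 25% and the top 50% were at 80.1% and 72.4% (5FU list) and 81.5% and 74.6% (PBS list). Among regions found in 1 knockout list alone, the knockout 5FU list held 72.5% of those exclusive to wild-type 5FU (95% interval 70.0% to 74.9%, n = 1274) and 54.2% of those exclusive to wild-type PBS (51.0% to 57.4%, n = 909). For regions shared by both wild-type lists and ranked between the top 25% and the top 50%, it held 65.9% and 65.5%. So 5FU-exclusive regions leaned to the knockout 5FU list more than these shared regions did, and PBS-exclusive regions leaned to it less. The strong tier did not show this for 5FU. Of strong shared regions found in 1 knockout list alone, the knockout 5FU list held 72.5% (5FU list, n = 360) and 65.9% (PBS list, n = 173). Of such strong exclusive regions it held 68.2% (5FU, n = 44) and 40% (PBS, n = 5).

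These exclusive regions of the top 50% overlapped an enhancer mark less often than shared regions between the top 25% and the top 50%. Any overlapping base counted, and neither width nor rank was matched. The exclusive regions had median widths of 296 (5FU) and 274 (PBS) bases. Their median −log10 p was 5.40 and 4.77, close to their lowest values of 4.79 and 4.75. H3K4me1, the mark of poised and active enhancers, covered 68.0% of the 3773 5FU-exclusive regions and 58.8% of the 2811 PBS-exclusive ones in wild-type HSCs at 8 weeks, against 76.0% of shared regions of either list between the top 25% and the top 50%. In the wild-type HSCs given PBS at 16 weeks it covered 52.6% and 43.8%, against 63.0% and 63.2% of the shared ones. H3K27ac of the wild-type HPCs given the interleukin-1 vehicle, from younger mice, covered 43.3% and 34.5%, against 65.3% and 67.4% of the shared ones.

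To describe genes, the covered bases between 50 kb below and 50 kb above each protein-coding gene were added up for both lists. From these sums, each increased by 1000, a log2 ratio of 5FU to PBS was formed, and the median over genes, 0.06, was subtracted to give the relative log2 ratio. Added bases make the ratio of thinly covered genes smaller than that of the raw sums. Of 21883 genes, 15645 had at least 1000 covered bases in either list and were measured. The middle 50% of them lay between −0.11 and 0.12. At least 1.5-fold above the median gene were 186 genes (1.19% of those measured) and at least 1.5-fold below were 135 (0.863%). With lists limited to equal covered bases the counts were 122 above and 232 below, so the balance between the directions depended on list size. Of the 8507 genes with 5000 or more covered bases in 1 of the lists, 58 were above and 21 below by this margin.

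Of the 10 well-covered genes farthest above the median, 9 are reported, and all 9 had more than 5000 covered bases after 5FU and fewer after PBS. They were St6galnac5, a sialyltransferase (8770 covered bases after 5FU, 3323 after PBS, relative log2 ratio 1.12), Krba1 (7850 and 2969, 1.1), Tgfbi, a TGF-beta-induced matrix protein (8643 and 3370, 1.08), and Nubp1, a factor of iron-sulphur cluster assembly (5411 and 1910, 1.08). Fap, a membrane protease, had 5273 and 1936 bases (1.04), Inhba, the activin A subunit, 5050 and 1942 (0.98), Selp, which encodes P-selectin, 8737 and 3737 (0.98), Plac8 8138 and 3526 (0.96), and Kcna3, a potassium channel, 5587 and 2277 (0.95). For each of these 9 genes the 5FU list covered more than 2000 bases beyond the PBS list. Fap fell to 0.61 with windows of 10 kb, and Inhba to 0.60 with equal covered bases.

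Among genes with 5000 or more covered bases in 1 of the lists, Trib2 was farthest below the median. Trib2 encodes a pseudokinase that promotes degradation of C/EBP-alpha, and had 2128 covered bases after 5FU and 6171 after PBS (−1.25). Gli2, a Hedgehog transcription factor, had 2644 and 5472 (−0.89), Telo2, a chaperone of ATM-family kinases, 3099 and 6222 (−0.87), Fam241b 2986 and 5871 (−0.84), and Chd1, a chromatin remodeller, 3562 and 6770 (−0.83). Pkp4 had 3853 and 6953 (−0.77), Sil1 3467 and 6189 (−0.74), Tbc1d14 5322 and 9109 (−0.73), Hdac4, a histone deacetylase, 6050 and 10206 (−0.73), and Mras, a Ras relative, 5375 and 8914 (−0.69). Telo2 and Chd1 were near the median gene when the windows reached 10 kb past the gene instead of 50 kb, at −0.07 and −0.12, so their differences lay farther out. The 50 kb window of Chd1 reaches into Rgmb, which is described below and was at −1.37 with 10 kb windows. Pkp4 was at −0.53 with 10 kb windows, short of 1.5-fold.

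**Figure D2:**
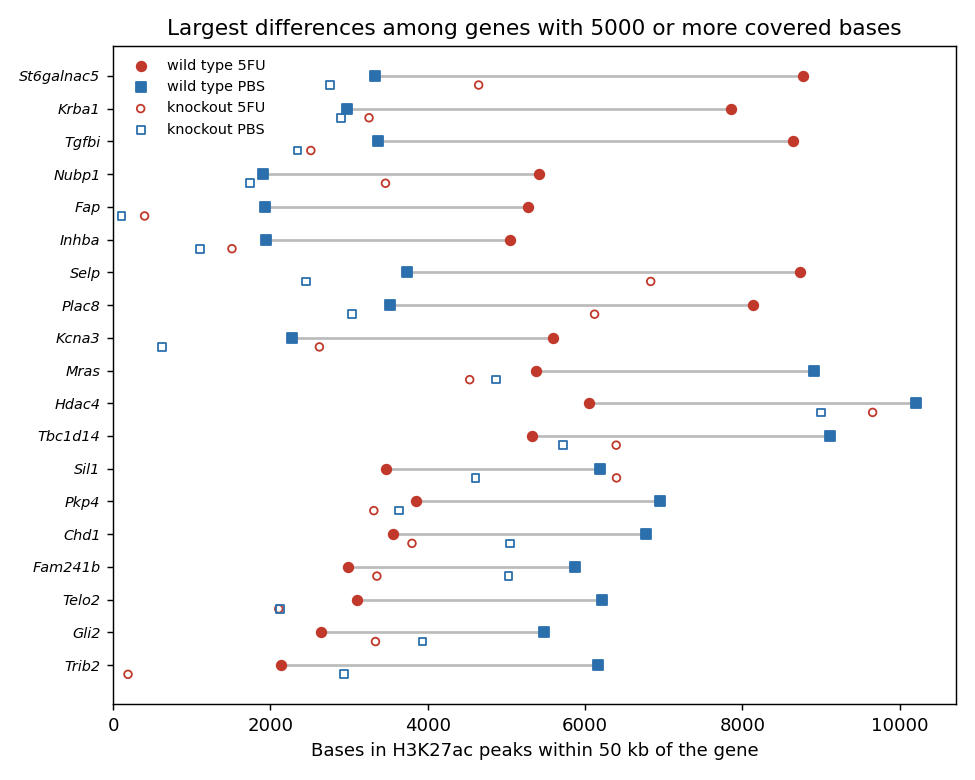
Covered bases within 50 kb of the gene (x axis) for 9 of the 10 genes farthest above and the 10 farthest below the median gene among those with 5000 or more covered bases; filled symbols are wild type and open symbols the knockout, red circles 5FU and blue squares PBS, each from 1 pooled list. In the knockout, Selp, Plac8 and Kcna3 show the same wide gap and Trib2 the same reversed gap, while Krba1, Tgfbi and Hdac4 show little gap.

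Around Selp the 5FU list held more peaks from just before the start of the gene into its first part. P-selectin is stored in platelets and endothelium and brings them into contact with leukocytes, and Selp is also a known marker of aged HSCs. Selp lies on chromosome 1 from 164115264 to 164150026, and its window held 19 peaks after 5FU and 8 after PBS. The strongest peak within 1 kb of its start had a −log10 p of 11.7 in the 5FU list and 7.76 in the PBS list, on scales that belong to each list; the strongest peaks of the whole window, inside the gene, had 13.6 and 15.9. The window of the neighbour F5, coagulation factor V, takes in peaks of Selp and had 9894 and 5765 bases (0.63); with 10 kb windows F5 was at −0.14.

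Around Trib2 (chromosome 12, 15791725 to 15816962) the peaks sat at the end of the gene that holds its start. The number of peaks was similar, 5 after 5FU and 6 after PBS, and those of the PBS list were wider. Around Hspb8 (chromosome 5, 116408491 to 116422864) 856 bases were covered after 5FU and 3682 after PBS (−1.39). PBS peaks lay in the gene body and at the start, and the 5FU list had none at the start.

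**Figure D3:**
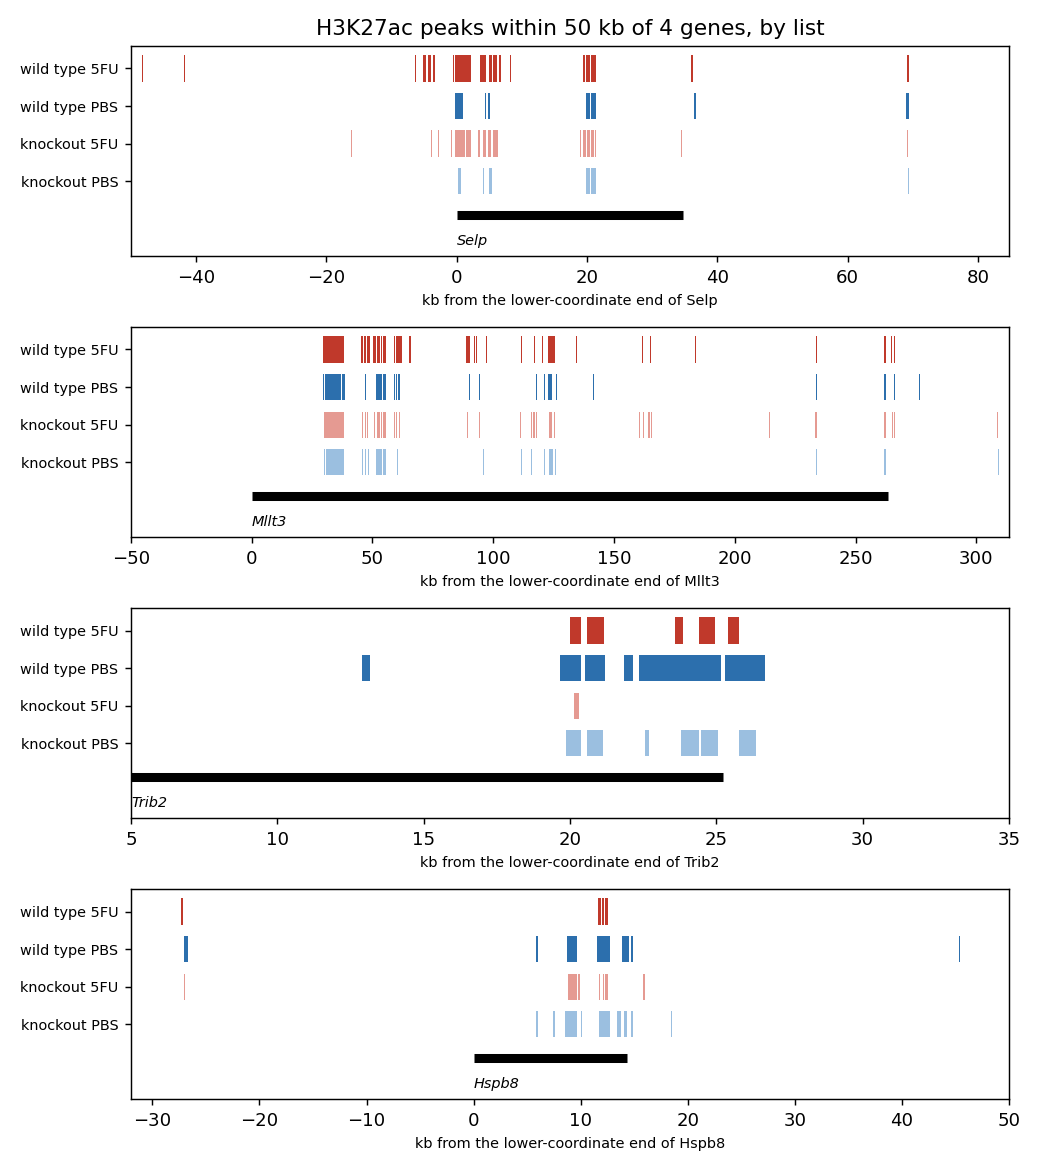
Peaks of H3K27ac (vertical blocks) by list around 4 genes; the x axis is the distance in kb from the lower-coordinate end of the gene and black bars are the genes. At Selp the 5FU lists hold more peaks around its start, at Mllt3 they hold more peaks within the gene, and at Trib2 and Hspb8 the PBS lists hold wider peaks.

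The knockout HSCs, which share no treated or vehicle sample with the wild type, gave a second 5FU-to-PBS comparison. Its 2 lists differed in a further way: the 5FU list had 5 peaks on the Y chromosome, some at the strong Y sites of both wild-type lists, and the PBS list had 1 weak Y peak elsewhere; whether sex has a part in the knockout ratios was not tested. The knockout lists covered 36.5 Mb (5FU) and 33.4 Mb (PBS). Around Kmt2c itself 7048 and 6658 bases were covered in the knockout lists, which says nothing of the deletion, since peaks cannot show lost exons. Whether the same input chromatin served both genotypes is not stated.

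Many genes that stood out in the wild type did so in the knockout, in the same direction. Of the 186 wild-type genes above the median by 1.5-fold, 149 were measured in the knockout; 123 of them (82.6%) were above its median gene, as were 50.1% of all measured genes, and 44 (29.5%) were at least 1.5-fold above, against 1.26% of all. Of the 135 below, 96 were measured, 24 (25%) were above the median, and 22 (22.9%) were at least 1.5-fold below, where 0.949% of all were. Only 2 genes of the first set and 0 of the second were past 1.5-fold in the opposite direction. The genes shared make up 23.0% and 15.3% of the 191 and 144 knockout genes past the threshold. Neighbours share windows, and the 44 and 22 genes stand for 28 and 15 loci. With at most 1 gene per 100 kb, the shares past the threshold were 23.3% and 23.5%, against 1.81% and 1.3% of all such genes. Thinly covered genes pass it more often: 4.03% above and 3.90% below in the wild-type decile with least coverage. Among genes with 5000 or more bases, 21 of 57 (36.8%) and 3 of 21 (14.3%) were past it in the knockout. Of all such genes 1.06% and 0.435% were. Of the 44 genes above, 25 kept the 1.5-fold margin in the wild type with equal covered bases, and all 22 below did.

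The shared genes with more H3K27ac bases after 5FU are described here by name, with 5FU before PBS in each pair of values. Selp had 6835 and 2451 bases in the knockout (1.13) and Kcna3 2622 and 619 (1.11). Plac8, a small protein of myeloid cells, had 6121 and 3036 (0.77), and Neo1, a netrin and RGM receptor that marks HSC subsets, 3758 and 1698 (0.77) after 6309 and 3188 (0.75) in the wild type. Cd55, an inhibitor of complement, had 4981 and 2108 bases in the wild type (0.89) and 2624 and 1130 in the knockout (0.72); with 10 kb windows its wild-type ratio was 0.43. Pik3cb, a catalytic subunit of PI3-kinase, had 10476 and 6222 (0.61), then 7877 and 3829 (0.83). Samsn1, an adaptor of immune cells, had 16417 and 10107 (0.59), then 16827 and 10210 (0.62). The adenosine receptor gene Adora2b had 7630 and 3318 (0.94), then 5830 and 3049 (0.71). With equal covered bases Pik3cb and Samsn1 fell short of 1.5-fold in the wild type, at 0.57 and 0.46.

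Several of the shared genes lie in families side by side. The chemokine genes Ccl2 and Ccl7, which draw monocytes, share a window with 1787 and 585 bases in the wild type (0.76) and 1994 and 513 in the knockout (0.94). Ms4a4b, Ms4a4c and Ms4a6c had wild-type ratios of 0.81, 0.76 and 0.67 and knockout ratios of 1.27, 0.89 and 1.48. The lymphocyte receptor genes Ly9 and Cd244a shared one window, with 5022 and 2765 bases (0.62) and 2757 and 1303 (0.66). A run of 7 odorant receptor genes on chromosome 7, Olfr64 to Olfr66 and Olfr631 to Olfr635 without Olfr634, had wild-type ratios from 0.59 to 0.75 and knockout ratios from 0.94 to 1.49. With equal covered bases all 7 fell short of 1.5-fold in the wild type, from 0.20 to 0.49, as did Ms4a6c at 0.58. Such receptors serve smell, and the sequence around them is what carried the peaks.

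The shared genes with fewer bases after 5FU are given in the same way. Trib2 had 188 bases after 5FU and 2933 after PBS in the knockout (−1.78), and Hspb8 1693 and 3508 (−0.79). Igf2r, the receptor that takes IGF2 to lysosomes, had 5208 and 8299 in the wild type (−0.64) and 406 and 3578 in the knockout (−1.75). Tgfa, a ligand of the EGF receptor, had 857 and 2846 (−1.11), then 1753 and 3662 (−0.81). Bmpr1a, a receptor for bone morphogenetic proteins, had 842 and 1960 (−0.74; knockout −0.89). Rgmb, a co-receptor for the same ligands, had 732 and 3355 (−1.39; knockout −1.17), and Smurf1, a ubiquitin ligase that acts on their signalling proteins, 2531 and 4307 (−0.64; knockout −0.82). These genes lie on different chromosomes, and all 3 were named after their values were seen. The 50 kb windows of Bmpr1a and Ldb3 (−0.82; knockout −1.0) overlap. With 10 kb windows Ldb3 was at −0.73, while Bmpr1a had too few covered bases for a ratio. The values of Bmpr1a thus cannot be assigned to that gene alone.

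**Figure D4:**
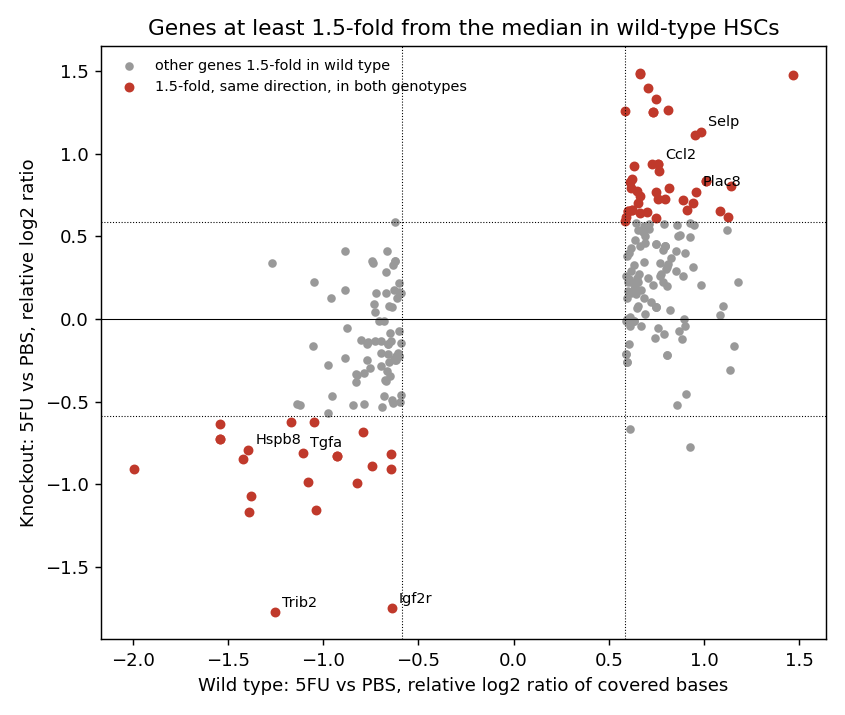
Relative log2 ratio of covered bases, 5FU against PBS, in the wild type (x axis) and the knockout (y axis) for genes at least 1.5-fold from the median in the wild type and measured in the knockout; red points are at least 1.5-fold in the same direction in both, and dotted lines mark 1.5-fold. Of the genes on the right 123 of 149 lie above 0 on the y axis, and of those on the left 24 of 96 do.

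Not all large wild-type differences were met in the knockout. Of the 9 well-covered genes reported as farthest above the median in the wild type, 8 were measured there, all 8 were above its median and 4 by 1.5-fold. Tgfbi, with 2513 and 2343 bases (0.02), and Krba1, with 3253 and 2897 (0.08), were near its median, and Inhba was at 0.20. Of the 10 well-covered genes farthest below, 7 were below the knockout median and 1, Trib2, by 1.5-fold. Hdac4 was at 0.04, Tbc1d14 at 0.09 and Sil1 at 0.35. No test of the difference between genotypes was possible with 1 list per group.

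Genes were then grouped into 21 lists by role, with 438 genes measured; 1.19% and 0.863% of all genes, above and below by 1.5-fold, are the background for their counts. List medians stayed close to that of all genes, from −0.03 to 0.19, and few members reached 1.5-fold in any list. A list's median must also be read against coverage. In the decile of genes with most covered bases 61.6% were above the median gene, and in the decile with least 43.5% were.

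**Figure D5:**
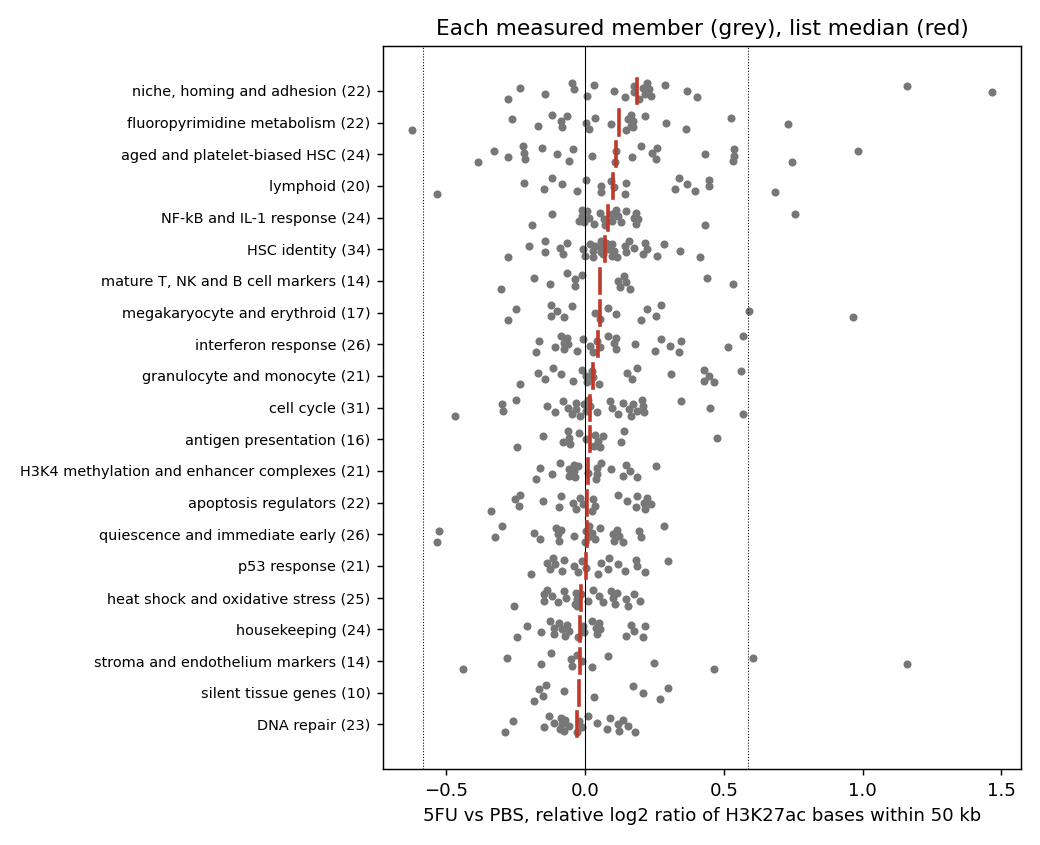
Relative log2 ratio of covered bases, 5FU against PBS, in wild-type HSCs (x axis) for every measured member (grey points) of 21 gene lists, with the list median in red, the number of measured members in brackets, and dotted lines at 1.5-fold. Medians run from −0.03 (DNA repair) to 0.19 (niche, homing and adhesion), and Cdh5, at 1.16, is among the members farthest out.

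HSC identity genes had slightly more covered bases after 5FU, with no member past 1.5-fold. Their median was 0.07, and 25 of 34 were above the median gene; in the knockout the median was 0.10 and 23 of 34 were above. These are densely covered genes, with a median of 17427 bases. With equal covered bases the median was 0.01. The largest difference was at Mllt3, a cofactor that maintains human and mouse HSCs, which lies on chromosome 4 from 87769925 to 88033407. It had 30073 bases in 47 peaks after 5FU and 21449 in 32 peaks after PBS (0.41), and 25663 and 18582 in the knockout (0.40). In wild-type HPCs given the interleukin-1 vehicle, from mice 8 to 10 weeks old, it had 2435.

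The transcription factor gene Fli1 followed with 36525 and 27480 bases (0.34; knockout 0.43), then Ly6a, which encodes Sca-1, with 20160 and 15704 (0.28; knockout 0.43), Slamf1, which encodes CD150, with 16581 and 13138 (0.26; knockout 0.19), and Hoxb5 with 21186 and 17362 (0.22; knockout 0.41). Mecom, one of the most covered genes, had 71901 and 63766 (0.11; knockout 0.35). Kit had 15122 and 13824 (0.06) and Procr, which encodes EPCR, 5759 and 5254 (0.06). Hlf, a transcription factor gene of quiescent HSCs, had 8165 and 8380 (−0.09), and Robo4 was at −0.28.

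Niche, homing and adhesion genes had the highest list median, 0.19, with 17 of 22 above the median gene; in the knockout it was 0.18 with 15 of 22 above. Across the 7 settings tried the median ranged from 0.08 to 0.32. Cdh5, the endothelial cadherin, was among the members past 1.5-fold, with 2073 and 323 bases (1.16), and 1402 and 1596 in the knockout (−0.16). Cxcr4, the receptor that holds HSCs in the marrow, had 15751 and 12183 (0.29; knockout 0.23). S1pr1, a receptor for egress into blood, had 8517 and 5925 (0.40; knockout 0.11). Angpt1, a ligand that HSCs themselves express, had 20008 and 16667 (0.19) and 25681 and 13610 in the knockout (0.82). Its receptor gene Tek had 2258 and 2467 (−0.15) and 3548 and 1301 in the knockout (0.93). Tgfb1 (−0.04), Selplg (−0.05) and Thpo (−0.24) were below the median.

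Genes known from aged and platelet-biased HSCs had a median of 0.11, with 14 of 24 above; Selp and Neo1 were past 1.5-fold, in both genotypes. Jam2 had 7213 and 4855 bases (0.43; knockout 0.29), Vwf, von Willebrand factor, 22928 and 19002 (0.20; knockout 0.32), and Ehd3 6788 and 4179 (0.53; knockout −0.32). Others lay below, among them Gp5 (−0.39), Aldh1a1 (−0.33) and Alcam (−0.22). Members thus lay on both sides of the median gene.

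Genes of NF-kB and the interleukin-1 response had a median of 0.08 with 18 of 24 above, and 0.09 with 16 of 24 above in the knockout. Ccl2 was the one member past 1.5-fold. Il1r1, the interleukin-1 receptor, had 9630 and 6581 bases (0.43; knockout 0.32), Rela was at 0.19 (0.18), Nfkb1 at 0.17 (0.10), Tnfaip3 at 0.15 (0.18), and Nfkbia, the inhibitor induced by NF-kB, had 9513 and 8231 (0.13; 0.11). Il1b was at −0.19. Interferon response genes had a median of 0.05 with 16 of 26 above and none past 1.5-fold. Oas2 (6616 and 3934 bases, 0.57; knockout 0.00) and Ifih1 (11214 and 7213, 0.52; knockout 0.17), sensors of double-stranded RNA, were highest, and Ifi44 (−0.18) was below. Antigen presentation genes had a median of 0.02, with 9 of 16 above.

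Lineage genes differed by list. Lymphoid genes had a median of 0.10, with 14 of 20 above. Dntt, which adds bases at V(D)J joins, was past 1.5-fold with 4745 and 2441 bases (0.68; knockout 0.35), but was at 0.25 with 10 kb windows. Bach2 had 39211 and 29895 (0.32; knockout 0.47), Bcl11a 38633 and 27935 (0.40; 0.39) and Sox4 10236 and 6925 (0.45; 0.30), and Foxo1 was lowest at −0.53. Granulocyte and monocyte genes had a median of 0.03, with 14 of 21 above and none past 1.5-fold. Gfi1 was at 0.56 (knockout 0.05), Csf1r at 0.46 (0.27) and Irf8 at 0.43 (0.05), while Spi1, which encodes PU.1, had 24530 and 23058 bases (0.03) and Cebpa 7093 and 7748 (−0.17; knockout −0.28). Megakaryocyte and erythroid genes had a median of 0.05, with 10 of 17 above. Hba-a1 (2923 and 1508 bases, 0.59) was among those past 1.5-fold, on few bases, and was at −0.21 in the knockout.

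Proliferation and quiescence genes were close to the median gene as lists. Cell cycle genes had a median of 0.02, with 18 of 31 above and none past 1.5-fold. The largest was Cdk6, the kinase that sets how readily HSCs leave quiescence, with 24040 bases in 27 peaks after 5FU and 15221 in 20 peaks after PBS (0.57), and 26587 and 15381 in the knockout (0.70). Mcm3 was at 0.45 and Mki67 at 0.34 (knockout 0.54), and Ccnb2 (−0.47), Ccnd1 (−0.30) and Cdk1 (−0.30) were below. Myc had 3748 and 3511 (0.02). Genes of quiescence and the immediate early response had a median of 0.01, with 14 of 26 above. Cdkn1c, which encodes the cell cycle inhibitor p57 of quiescent HSCs, had 3692 and 5504 (−0.53; knockout −0.20). Jun was at −0.32, Klf4 at −0.30 (−0.29) and Egr1 at −0.18 (knockout 0.19).

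Genes of the damage response and of 5FU's own metabolism had list medians between −0.03 and 0.12. The p53 response genes had a median of 0.00 with 11 of 21 above; Cdkn1a, which encodes p21, had 15551 and 15344 bases (−0.04), Mdm2 was at 0.08 and Bbc3, which encodes PUMA, at 0.22. DNA repair genes had the lowest median, −0.03, with 9 of 23 above, and 0.08 with 15 of 22 above in the knockout. Apoptosis genes had a median of 0.01 with 11 of 22 above. Genes of fluoropyrimidine metabolism had a median of 0.12 with 15 of 22 above, and 0.01 in the knockout. Of these, Slc22a7, a transporter, had 1292 and 327 bases (0.73), and Shmt2, which makes mitochondrial one-carbon units, 4376 and 6961 (−0.62; knockout 0.35). Abcc5, an exporter of 5FU nucleotides, was at 0.53 (knockout 0.23), and Tyms, the target of the drug, had too few covered bases to be measured.

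The lists meant as reference points were near 0. Housekeeping genes had a median of −0.02 with 10 of 24 above, genes silent outside other tissues −0.02 with 5 of 10 above, heat shock and oxidative stress genes −0.02 with 12 of 25 above, and genes of H3K4 methylation and enhancer complexes 0.01 with 11 of 21 above. Kmt2c itself, on chromosome 5 from 25271795 to 25498855, had 6821 and 6729 bases (−0.04). Markers of mature lymphocytes had a median of 0.05 with 7 of 14 above. Stroma and endothelium markers had a median of −0.02 with 6 of 14 above, of which Cdh5 and Pdgfrb were past 1.5-fold; Pdgfrb had 4216 and 2299 bases (0.60), and −0.22 with equal covered bases.

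Peaks at gene starts gave a separate view. Of 17491 genes with an annotated start in the RefSeq promoter table (GRCm38.p6, the same assembly as mm10), 8505 had a peak within 1 kb of a start in both lists, 320 in the 5FU list alone (1.83%), 345 in the PBS list alone (1.97%) and 8321 in neither. Start peaks in 1 list alone were thus slightly more for PBS than for 5FU, although the 5FU list is larger. In the knockout, 70 of the 320 genes had a start peak in its 5FU list alone and 45 in its PBS list alone; of the 345, the counts were 41 and 47. Over all genes they were 359 and 361.

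Among genes of the 21 lists, 375 with a start in the table, 12 had a start peak in the 5FU list alone and 5 in the PBS list alone. Over all 17491 genes the counts were 320 (1.83%) and 345 (1.97%). The gene lists were chosen with earlier results of these data known, so no lean to either treatment is read from their counts. The 12 were Abcc5, Acta2, Bax, Blnk, Cd3d, Cd48, Clec7a, Ifit2, Il1b, Kdr, Sesn2 and Tyms. The 5 were Aen, Nfix, Satb1, Shmt1 and Tgfb1. These start peaks were weak. Of the 12, Abcc5 (−log10 p 5.76), Bax, which permeabilises mitochondria (4.32), Ifit2 (4.32) and Il1b (3.65) also had one in the knockout 5FU list and none in the knockout PBS list, with Ifit2 on 7 bases. Cd48 had the reverse, 0 and 109 bases, and the other 7 had no start peak in either knockout list. Of the 5, Aen, a p53-induced nuclease (4.79), Satb1 (4.07) and Tgfb1 (4.75) had one in both PBS lists and in neither 5FU list, and Nfix and Shmt1 had one in both knockout lists.

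Outside the lists, the pattern of a start peak in both 5FU lists and in neither PBS list was found among others at Ube2c, a ubiquitin-conjugating enzyme of the anaphase-promoting complex (−log10 p 3.65 in the wild type and 4.21 in the knockout), and the Y-linked gene Eif2s3y (5.02 and 9.47). The knockout PBS list also lacked the strong Y sites of the other HSC H3K27ac lists. A missing Eif2s3y peak there therefore cannot be read as a difference by treatment. The reverse, both PBS lists and neither 5FU list, was found among others at Helq, a repair helicase (2.84 and 3.65), Hspb8 (6.19 and 5.40), Jag2, a Notch ligand gene (6.19 and 3.65), and Shf, an adaptor gene (6.19 and 5.76). Mrps18c had the same values as Helq, with 234 start bases in the wild-type and 200 in the knockout PBS list. That weak peak thus cannot be assigned to Helq alone. These genes were named after their values were seen.

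The sequence before the start of 5 genes is shown to let the marked starts be compared: Selp and Plac8 are among the largest differences by covered bases, Ube2c has a start peak in both 5FU lists alone, and Hspb8 and Shf in both PBS lists alone. Most of the difference at Selp and Plac8 lay away from the start: within 1 kb of it 1443 bases were covered after 5FU and 1171 after PBS at Selp, and 388 and 0 at Plac8. Each is RefSeq sequence of GRCm38.p6, 5′ to 3′ on the strand of the gene, and stops before the annotated gene. Capitals mark CCGGAA (an ETS factor motif), GGGCGG (an SP and KLF factor motif) and TGTGGT (a RUNX motif) on either strand. They are from Selp at chr1:164115014-164115263 (plus strand), Plac8 at chr5:100572254-100572455 (minus), Ube2c at chr2:164769679-164769928 (plus), Hspb8 at chr5:116422865-116423114 (minus) and Shf at chr2:122369148-122369397 (minus).
Selp: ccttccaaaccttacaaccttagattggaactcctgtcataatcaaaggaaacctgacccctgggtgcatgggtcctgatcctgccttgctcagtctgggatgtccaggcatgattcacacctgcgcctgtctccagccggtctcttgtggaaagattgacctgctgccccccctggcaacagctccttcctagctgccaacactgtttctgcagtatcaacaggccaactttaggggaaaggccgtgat
Plac8: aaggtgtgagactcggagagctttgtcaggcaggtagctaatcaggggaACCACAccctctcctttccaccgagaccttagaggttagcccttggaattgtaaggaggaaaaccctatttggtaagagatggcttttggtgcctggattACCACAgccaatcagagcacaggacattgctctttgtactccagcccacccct
Ube2c: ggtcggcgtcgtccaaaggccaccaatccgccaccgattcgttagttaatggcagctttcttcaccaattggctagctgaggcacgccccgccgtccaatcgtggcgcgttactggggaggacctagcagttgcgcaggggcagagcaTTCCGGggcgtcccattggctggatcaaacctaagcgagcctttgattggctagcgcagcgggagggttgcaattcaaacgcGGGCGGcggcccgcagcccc
Hspb8: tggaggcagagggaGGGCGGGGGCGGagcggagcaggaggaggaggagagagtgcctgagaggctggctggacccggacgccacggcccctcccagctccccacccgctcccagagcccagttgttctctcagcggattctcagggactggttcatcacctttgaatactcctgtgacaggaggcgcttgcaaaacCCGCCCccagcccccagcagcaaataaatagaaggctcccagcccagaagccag
Shf: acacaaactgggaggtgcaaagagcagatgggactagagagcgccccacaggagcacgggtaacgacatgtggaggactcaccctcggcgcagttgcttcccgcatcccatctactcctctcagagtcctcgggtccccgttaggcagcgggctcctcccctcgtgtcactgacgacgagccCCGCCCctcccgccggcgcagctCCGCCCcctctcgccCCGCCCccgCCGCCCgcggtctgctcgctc

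The Selp stretch of 250 bases was fully inside peaks of both wild-type lists and of the knockout 5FU list, and had 0 covered bases in the knockout PBS list. It holds 3 CpG sites and none of the 3 motifs. Of the 202 bases of Plac8, 100 were covered in the wild-type 5FU list, 4 in the knockout 5FU list and 0 in either PBS list; it holds 2 matches to the RUNX motif and 2 CpG sites. Of the 250 bases of Ube2c, 227 were covered in the wild-type 5FU list, 178 in the knockout 5FU list and 0 in either PBS list; it holds 23 CpG sites, 1 ETS match and 1 SP and KLF match. These are 2 CpG-poor starts and 1 CpG-rich start.

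Of the Hspb8 stretch, 137 of 250 bases were covered in the wild-type PBS list and 0 in the other 3; it holds 3 SP and KLF matches, of which 2 lie side by side. Of the Shf stretch, 127 bases were covered in the wild-type PBS list, 146 in the knockout PBS list and 0 in either 5FU list; it holds 4 SP and KLF matches and 24 CpG sites.

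Over all 17491 genes, the 250 bases before the first listed start were searched for these letters on both strands. CCGGAA was present in 24.5% of genes with a start peak in both lists, 16.6% of those with one in the 5FU list alone (Wilson 95% interval 12.9% to 21.0%), 14.5% in the PBS list alone (11.2% to 18.6%) and 5.61% in neither. GGGCGG was present in 60.1% (both), 50.9% (5FU alone), 53.9% (PBS alone) and 24.1% (neither). TGTGGT was present in 10.4%, 15.9% (12.3% to 20.3%), 9.57% (6.89% to 13.1%) and 14.6%, and in 12.5% of all genes. Starts marked in 1 list alone also had fewer CpG sites than starts marked in both, with means of 12.2 (5FU) and 13.6 (PBS) against 17.2. A match is only a string of letters in the window.

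MicroRNA genes were described by covered bases within 10 kb of the hairpin. Of 349 hairpins with at least 1000 bases in either list, 7 (2.01%) were at least 1.5-fold above the median gene and 5 (1.43%) below. The highest were Mir126a and Mir126b, which overlap on opposite strands within Egfl7 (chromosome 2, 26591357 to 26591429 for Mir126a), so that 1 stretch of peaks serves both. The product of Mir126a, miR-126, keeps HSCs quiescent by damping PI3-kinase and AKT signalling. Around Mir126a 2328 bases were covered after 5FU and 640 after PBS (0.96), and 7351 in the wild-type HPCs given the interleukin-1 vehicle at 8 to 10 weeks. In the knockout 180 and 425 bases were covered, too few for a ratio. Its mature form is shown with the seed, bases 2 to 8, in capitals, beside that of the overlapping gene; the seeds differ.
mmu-miR-126a-3p: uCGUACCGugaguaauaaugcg
mmu-miR-126b-3p: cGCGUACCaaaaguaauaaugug

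Of other microRNAs known in blood, Mir342 had 1915 and 704 bases (0.72), and Mir223, of granulocytes, 2746 and 1821 (0.35). The lowest was Mir6921 with 411 and 1707 bases (−1.0). These 3 also had fewer than 1000 bases in either knockout list, so no knockout ratio is given.

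Large clusters of peaks, the form in which cell identity genes are often marked, largely overlapped between the treatments. Peaks no more than 10 kb apart were joined into 20874 clusters in the 5FU list and 20892 in the PBS list. Of the 500 clusters with most covered bases in the 5FU list, 417 (83.4%) overlapped 1 of the 500 of the PBS list, and 418 (83.6%) of those of the PBS list did the reverse. The smallest of the 500 had 10785 bases in the 5FU list and 9619 in the PBS list. Of the 500 largest of the 5FU list, 437 had more covered bases there than in the PBS list. Of the 500 largest of the PBS list, 177 had more in the PBS list. These clusters were picked by their size in 1 list, and list size was not equalised. The 5FU list covered 45.4 Mb and the PBS list 42.2 Mb.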

How the data were processed

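The authors used Novoalign and MACS2 with mm10 (GRCm38), per the submitters' processing notes. Their versions, any read filter and the pooling of libraries are not stated there. The authors' deposited lists give each peak's position, its fold enrichment (a linear ratio) and its −log10 p and −log10 q, used here to rank or filter peaks within a list only. The lists had been filtered before deposit: 75.6% (5FU) and 70.4% (PBS) of the peak ranks were present, and 42.6% and 36.6% of the last decile.

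Peaks that overlapped or touched were merged. Overlaps, covered bases and Wilson intervals were computed in Python 3.11.15 with numpy 2.4.6, pandas 2.3.3 and scipy 1.17.1, and the code was tested on simulated lists. Gene positions, starts and miRNAs came from RefSeq tables; 486 of the 491 genes of the lists matched. The members and gene lists were chosen with earlier results of these data known, and several lists were taken over from that earlier work. The named genes were those nearest to the 10 strongest exclusive regions of each list, up to 3 members per gene list and direction past 1.5-fold, the 10 most extreme per direction with 5000 or more covered bases, and 14 reference genes. Some genes that the rule or the marker lists take in are not reported here; counts and medians of the gene lists include them, while the marker sums do not. Genes named beyond this rule were chosen after their values were seen. Intervals cover counting error only. No sequence under a peak beyond gene starts was used, and the bigWig tracks were not analysed here.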

Additional observations from a re-analysis of the deposited data

How the results depend on the processing

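The values were recomputed under 15 alternatives, 3 of them (the top 50%, no X chromosome and 1 gene per 100 kb) chosen after seeing the data. No paired analysis was possible because the files used hold 1 pooled list per group; from these lists no library could be left out either. The share of strong exclusive regions in the 5FU list, 85.2%, was 65.0% with −log10 q of 5 or more, 100% with the top 10% (3 of 3 regions), 57.3% with the top 50%, 57.8% with equal numbers of peaks, and reversed to 30.0% (27 of 90) with equal covered bases, which left 53866 peaks of the 5FU list against 59263; it was 83.4%, 85.9% and 85.3% with an overlap of 50%, ranking by fold enrichment and no X chromosome. With ties at the median kept, the top 50% held 50.5% of 5FU regions and 57.0% of PBS regions, so its 57.3% compares unlike tiers. The share near a start was 37.0% for 5FU with equal bases, and with 5 kb 30.6% for 5FU and 40% for PBS. Taking the summit alone, 57.6% and 50% of the 5FU regions lay in the knockout 5FU and PBS lists. Genes 1.5-fold above and below numbered 122 and 232 with equal bases, 7 and 6 with 5000 added bases, and 90 and 74 with 1 gene per 100 kb. Pdgfrb reversed to −0.22 with equal bases. Of the other values, 158 of named genes and 115 list medians moved little, and 6 and 11 moved. The causes were not tested, except that the larger addition shrinks every ratio by construction and 1 gene per 100 kb leaves fewer genes. Unknown depth limits what a missing weak peak can mean.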
